A study of Homo sapiens with 17 samples.

Results

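The genes described here are 754 human lncRNA genes that carried only the name of the sequenced genomic clone they lie on, such as AC012645.1 or AP001160.1. They were chosen by 2 criteria in the deposited gene table, a gene type of lncRNA and a name made of a clone prefix, digits, a dot and a number. The 754 genes stood beside 630 other lncRNA genes and 12824 protein-coding genes among the 14538 genes of the table. RNA sequencing was done in HEK293T, a human embryonic kidney cell line, from total RNA depleted of ribosomal RNA. In the INTS1-AID line both copies of INTS1 carry a miniAID tag, a degron through which the plant hormone auxin triggers destruction of the tagged protein. The design asks how RNA levels change once INTS1 is removed for 4 h or 12 h, and whether the tagged line already differs from its parent.

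The 17 libraries formed 6 groups. Untreated parental cells and untreated INTS1-AID cells had 3 libraries each. INTS1-AID cells were kept for 4 h without auxin (2 libraries) or with 500 µM auxin (3 libraries), and for 12 h without auxin (3 libraries) or with 500 µM auxin (3 libraries). Parental cells treated with auxin are not analysed here, so effects of auxin itself and of INTS1 loss cannot be told apart. No label says whether replicates came from separate cultures, so p-values measure the spread between libraries, which may be technical. Values per library were used for the 6 untreated libraries, which held 26294938 to 39321998 reads in genes. For the other 11 libraries the authors' comparison columns were used, and their depth is unknown. Auxin acts on the tagged protein, so the INTS1 transcript does not check the depletion. INTS1 RNA had normalized counts of 4143, 4003 and 3720 in the INTS1-AID libraries and of 5186, 4019 and 7384 in the parental libraries. The third parental library stood apart from the others along transcript GC content, with a Spearman correlation of 0.715 between its deviation from the group mean and GC over 13293 genes, against -0.530 and -0.675 for the other parental libraries. All 10 genes of a HEK293T list that includes neurofilament and kidney development genes were in the table, and their summed normalized count was 5045 to 5539 in parental and 5375 to 5651 in INTS1-AID libraries. Of markers of other cells, 0 of 6 fibroblast genes, 2 of 6 blood genes (summed count 138 to 174) and 3 of 5 colon or epithelial genes (1089 to 1289) were in the table. In bulk RNA of this kind, fewer cells with a transcript and less transcript per cell cannot be told apart.

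Long non-coding RNAs are transcribed by RNA polymerase II without encoding a known protein. Many start beside a protein-coding promoter and run away from it on the other strand, an arrangement called divergent transcription, and such transcripts are usually short-lived because they are ended early and then degraded by the nuclear exosome. Integrator, of which INTS1 is the largest subunit, binds polymerase II near gene starts, cuts the nascent RNA and terminates transcription. Besides the small nuclear RNAs that it processes, it is known to act on enhancer RNAs, promoter-antisense RNAs and some mRNAs.

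By the GENCODE v29 annotation of the same genome build, GRCh38, 427 of the 754 genes (56.6%) were divergent. This means that the start lay within 2 kb of the start of a protein-coding gene on the opposite strand and transcription ran away from it. Members that overlapped a protein-coding gene on the same strand were classed by that overlap first and are not among the 427. A further 131 overlapped a protein-coding gene on the opposite strand without sharing its start (antisense), 67 overlapped one on the same strand, 20 began within 10 kb past the end of one on the same strand (downstream), and 109 were in none of these classes (intergenic). The median signed offset between the starts of a divergent gene and its partner was 48 bp, with starts inside the partner counted as negative. Gaps and overlaps thus cancel in it, and 171 of the 427 starts lay within 250 bp of the partner's start. In 225 pairs the starts left a gap, and in 202 pairs the lncRNA started inside the partner, so that the first stretches of both overlapped. Since then 301 of the 754 have received a symbol, of which 151 end in -DT for divergent transcript, 110 in -AS for antisense, and 20 begin with LINC.

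The promoter sequences of a few divergent genes are shown as description only, and whether they bear on the changes was not tested. The second group shows how close some such genes start to their partners. RefSeq promoter windows (GRCh38.p14) run from 250 bases before to 50 bases after a start. In the first group the window is that of the lncRNA itself, on its own strand, and capitals mark GGGCGG on either strand, the core of the GC box bound by Sp1. The windows are chr16:30096180-30096479 on the plus strand for AC012645.1 (YPEL3-DT), chr5:172959319-172959618 on the minus strand for AC008429.1 (RPL26L1-AS1), and chr2:236167192-236167491 on the plus strand for AC019068.1 (GBX2-AS1). The first and the second of these genes rose after auxin and the last fell.
AC012645.1: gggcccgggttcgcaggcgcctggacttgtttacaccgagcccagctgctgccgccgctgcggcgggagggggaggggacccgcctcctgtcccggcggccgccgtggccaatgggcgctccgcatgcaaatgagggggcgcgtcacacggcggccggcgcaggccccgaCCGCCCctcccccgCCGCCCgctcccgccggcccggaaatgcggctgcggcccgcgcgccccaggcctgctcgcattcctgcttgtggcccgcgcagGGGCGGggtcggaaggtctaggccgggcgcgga
AC008429.1: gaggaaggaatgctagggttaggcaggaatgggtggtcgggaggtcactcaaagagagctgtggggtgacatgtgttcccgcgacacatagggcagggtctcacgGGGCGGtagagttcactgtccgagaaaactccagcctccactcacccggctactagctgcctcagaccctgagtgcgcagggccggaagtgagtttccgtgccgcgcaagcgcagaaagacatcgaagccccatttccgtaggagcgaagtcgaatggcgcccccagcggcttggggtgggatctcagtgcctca
AC019068.1: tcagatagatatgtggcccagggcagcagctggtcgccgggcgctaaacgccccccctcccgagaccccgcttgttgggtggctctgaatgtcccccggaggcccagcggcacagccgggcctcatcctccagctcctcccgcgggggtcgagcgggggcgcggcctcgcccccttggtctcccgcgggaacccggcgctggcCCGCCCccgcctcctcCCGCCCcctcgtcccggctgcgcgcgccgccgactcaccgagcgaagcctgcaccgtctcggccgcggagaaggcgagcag

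In the second group the window is that of the protein-coding partner, on the partner's strand, and capitals mark the bases between the start of the lncRNA, which runs in the opposite direction, and the start of the partner. The windows are chr11:62832002-62832301 on the minus strand for STX5, beside AP001160.1 (STX5-DT), chr17:75896902-75897201 on the minus strand for TRIM65, beside AC087289.2, and chr19:32691571-32691870 on the plus strand for NUDT19, beside AC008736.1 (NUDT19-DT). By RefSeq starts of the partners, 182, 108 and 70 bases separate the starts. Partner starts in GENCODE v29 differ, which gave start distances of 146, 57 and 211 bp.
AP001160.1 beside STX5: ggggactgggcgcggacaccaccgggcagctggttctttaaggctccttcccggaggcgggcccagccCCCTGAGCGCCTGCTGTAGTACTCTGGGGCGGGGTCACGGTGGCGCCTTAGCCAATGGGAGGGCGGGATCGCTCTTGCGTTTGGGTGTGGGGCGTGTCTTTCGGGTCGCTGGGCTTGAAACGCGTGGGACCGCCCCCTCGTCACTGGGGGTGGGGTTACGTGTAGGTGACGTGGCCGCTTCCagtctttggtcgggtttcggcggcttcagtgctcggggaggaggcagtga
AC087289.2 beside TRIM65: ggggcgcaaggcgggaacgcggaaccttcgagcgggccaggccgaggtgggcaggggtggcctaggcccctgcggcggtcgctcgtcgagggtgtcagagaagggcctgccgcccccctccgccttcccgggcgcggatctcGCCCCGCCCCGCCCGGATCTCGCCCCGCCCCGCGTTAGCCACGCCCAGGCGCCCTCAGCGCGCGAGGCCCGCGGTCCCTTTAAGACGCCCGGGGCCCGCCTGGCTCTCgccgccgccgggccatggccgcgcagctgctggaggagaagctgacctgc
AC008736.1 beside NUDT19: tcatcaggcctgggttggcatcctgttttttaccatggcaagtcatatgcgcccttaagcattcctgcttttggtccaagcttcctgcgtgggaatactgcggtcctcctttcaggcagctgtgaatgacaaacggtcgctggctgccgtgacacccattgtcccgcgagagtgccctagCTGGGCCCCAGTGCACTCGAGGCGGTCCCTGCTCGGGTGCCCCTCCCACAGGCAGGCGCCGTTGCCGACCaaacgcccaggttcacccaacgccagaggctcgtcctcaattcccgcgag

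Of the 220 genes whose later symbol was in the RefSeq promoter table, 193 had a RefSeq start within 500 bp of the start in the deposited table. Among these 193 windows of 300 bp, 71.5% held GGGCGG on either strand, against 44.6% of 27305 promoters of all genes. TATAAA, the core of the TATA box, was in 5.70% against 12.0% of all promoters, and CCAAT in 30.6% against 35.7%. The polyadenylation hexamer AATAAA was in 6.74% against 17.8%, TGANTCA, the site of AP-1, in 2.07% against 7.76%, and TGACGT, the core of the cyclic AMP response element, in 10.4% against 8.32%. No motif in the list contains another. These shares describe named, mostly divergent genes, and a match is not a site.

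The clone-named genes were short and weakly expressed. Their median transcript length was 637 bp, against 1072 bp for other lncRNA and 2980 bp for protein-coding genes. The median level per kb of transcript was 11.3 normalized counts, against 18.6 for other lncRNA and 331 for protein-coding genes. A mean normalized count of at least 10 over the untreated libraries was reached by 328 genes and one of at least 100 by 58, while 39 were listed at 0 in all 6. The most abundant per kb was AL445524.1 at 1109 normalized counts per kb, a divergent gene 398 bp from TSNAX, which encodes a partner of the DNA- and RNA-binding protein translin. AL731577.2 in ZRANB1 followed at 1040, AL513165.1 downstream of POLR1E at 883, AC012146.1 (ZNF232-AS1) at 760 and AC004080.5 in HOXA3 at 635. AL731577.2 and AC004080.5 overlap exons of their host on the same strand, so their reads cannot be told apart from those of the host.

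Few members differed between the untreated lines. Of 328 genes tested, 1 was higher in INTS1-AID than in parental cells, AC010442.1 (later PP7080, chr5:470510-473098), by limma on log2(normalized count + 1) with Benjamini-Hochberg adjustment over 13293 genes. The background was 1.85% of all genes tested higher and 0.369% lower. AC010442.1 had normalized counts of 1092, 1083 and 1118 in the INTS1-AID libraries and of 731, 726 and 828 in the parental libraries. The groups did not overlap. Its log2 difference was 0.53 ± 0.09 (SE, 3 libraries against 3, limma adjusted p = 0.0262). It overlaps exons of protein-coding genes on both strands, among them those of the sodium-proton exchanger gene SLC9A3, so its reads cannot be told apart from theirs. None of the members was lower by limma, and edgeR on recovered reads also called 0 lower, while at an unadjusted p under 0.05 limma had 22 members higher and 13 lower. DESeq2 run on those reads had 2 higher and 1 lower. Per the authors' deposited table, AC010442.1, AC021087.1 and AC093510.1 (3 members) were higher and AP001062.1 (1 member) lower at an adjusted p under 0.05. The median difference of the 328 was -0.01 on the log2 scale, against 0.005 for all genes. The call of AC010442.1 was lost on leaving out any 1 library other than the third parental one (adjusted p 0.0526 to 0.194), and without that library 10 members were higher and 2 lower.

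Members on chromosome 5 differed between the lines together with their chromosome. The 16 tested members on chromosome 5 had a median log2 difference of 0.53, with 15 above 0, whereas the 312 on other chromosomes had a median of -0.03. Other genes of chromosome 5 moved alike: their median was 0.52 over 576 genes, of which 208 were higher and 0 lower by limma, against -0.01 over 12389 genes on other chromosomes, of which 37 were higher and 49 lower. Without the third parental library, 5 of the 10 members called higher lay on chromosome 5.

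**Figure D1:**
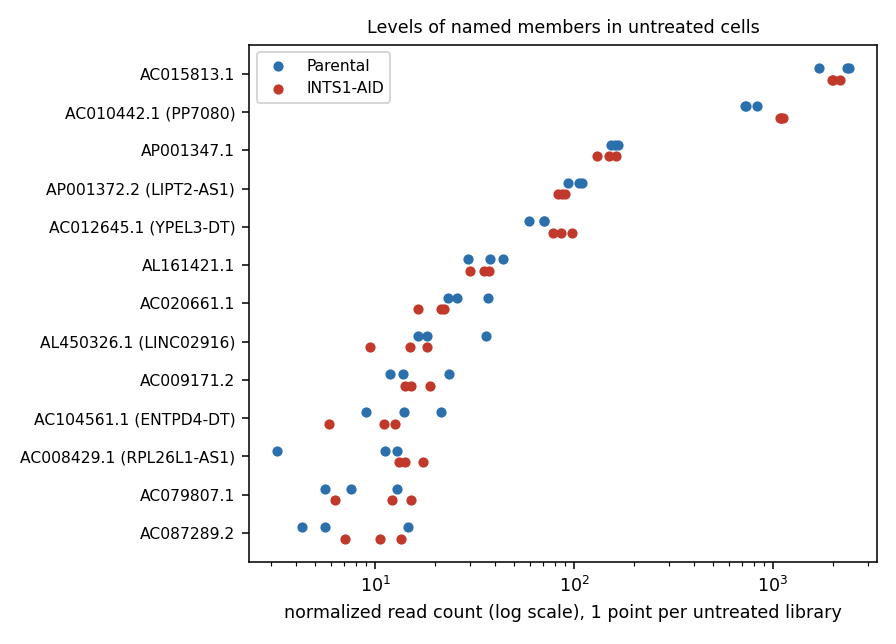
Normalized read count (log axis) of members named in the untreated and 4 h comparisons, 1 point for each of the 3 parental (blue) and 3 INTS1-AID (red) libraries. Both lines overlap for most genes, while the 3 INTS1-AID points of AC010442.1 lie between 1083 and 1118, above the parental points.

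After 4 h of auxin the members called were nearly all higher. By the authors' deposited table, 94 of the 733 genes with an adjusted p were higher (12.8%) and 2 were lower (0.273%), at an adjusted p under 0.05. Over all genes the background was 19.2% higher and 19.2% lower. The share higher was thus below the background, and the share lower was far below it. The median log2 change was 0.59 for the 733, 0.42 for other lncRNA genes, -0.01 for protein-coding genes and 0.005 for all genes, and 558 of the 733 (76.1%) lay above 0. Among the 94, the median log2 change was 1.19 and 66 changed by at least 1 on the log2 scale.

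The share of genes called depended on level, which is the mean normalized count of the 4 h comparison in the authors' deposited table. It covers libraries with and without auxin, so a rise itself moves a gene to a higher level. Of members under 10 counts 4 of 413 were higher, of those from 10 to 30 it was 30 of 165 (18.2%), from 30 to 100 it was 31 of 103 (30.1%), and from 100 to 300 it was 28 of 46 (60.9%) with 0 lower. For other lncRNA genes the share higher was 26 of 151 (17.2%) from 10 to 30 and 42 of 131 (32.1%) from 30 to 100 counts, close to that of members. At 100 to 300 counts, 31 of 70 other lncRNA genes were higher and 5 lower, and 374 of 1734 protein-coding genes (21.6%) were higher and 218 lower. Members were called higher at a larger share than protein-coding genes in the 3 levels from 10 to 300 counts in that table, and at a smaller share under 10 counts and from 300 counts, where 1 of 6 members was higher and 1 lower. The median over all members also rests on weak genes. Under 10 counts lay 413 of the 733, with a median of 0.72 and 73.8% above 0, and protein-coding genes at that level had a median of 0.44 with 68.8% above 0. The 6 members with 300 counts or more had a median of 0.05.

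**Figure D2:**
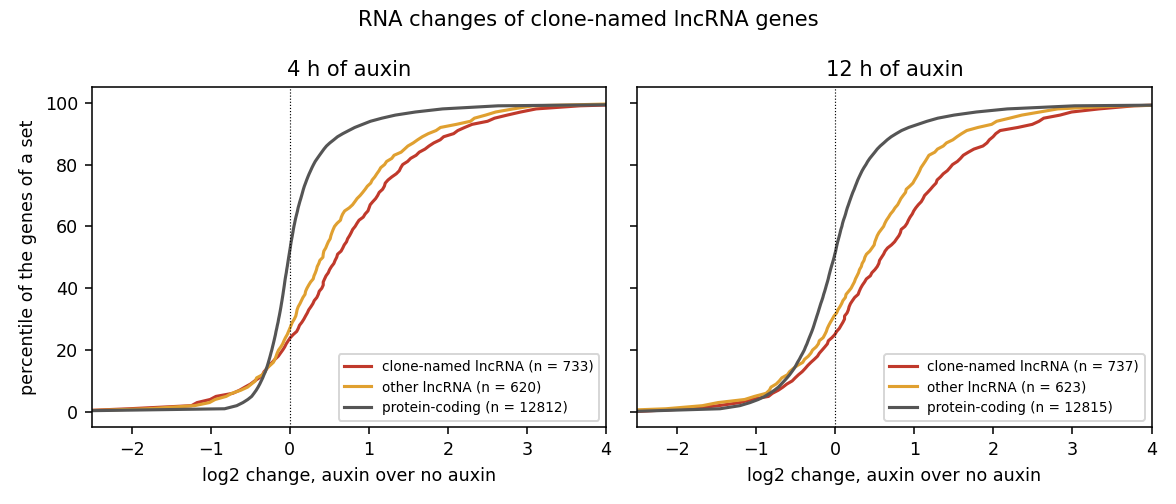
Log2 change with auxin over without auxin (x axis) against the percentile of the genes of a set (y axis) at 4 h and 12 h, from the authors' deposited fold changes. The curve of the clone-named genes (red) lies to the right of that of protein-coding genes (grey) from percentile 14 to 99 at 4 h and from 5 to 99 at 12 h, with medians of 0.59, and to the left of it in the lowest percentiles.

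Calls differed between position classes. The authors' deposited table gave 70 of 417 divergent members higher at 4 h (16.8%) and 0 lower, with a median log2 change of 0.73. For antisense members it was 7 higher (5.43%) and 1 lower of 129 (median 0.43). For those overlapping a gene on the same strand it was 6 (9.23%) and 1 of 65 (0.26). For downstream ones it was 4 (21.1%) and 0 of 19 (0.46), and for intergenic ones 7 (6.80%) and 0 of 103 (0.56). Over all genes 19.2% were higher and 19.2% lower, so the share higher was above the background only for the 19 downstream members. Within the divergent class, 28 of 124 with a gap under 250 bp (22.6%) were higher. It was 19 of 102 (18.6%) starting under 500 bp inside the partner and 11 of 94 (11.7%) starting deeper inside it. With a gap of 250 to 500 bp it was 7 of 55 (12.7%), and with a longer gap 5 of 42 (11.9%). Short genes were called more often than long ones, with 35 of 212 under 2 kb (16.5%) higher. From 2 to 10 kb it was 42 of 270 (15.6%), and at 10 kb or more 17 of 251 (6.77%), all below the 19.2% of all genes. Whether level accounts for these differences in share was not tested.

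The largest rises at 4 h among members called with a mean count of at least 20 included divergent and other members, and 56.6% of all members were divergent. Weak members reach that mean more easily when they rise, because it covers libraries with and without auxin. AC087289.2 (chr17:75897060-75900148), whose start faces that of the E3 ubiquitin ligase gene TRIM65 in the sequence above, had a log2 change of 2.43 (adjusted p = 0.000386) in the authors' deposited table. Its normalized counts before treatment were 13.4, 7.06 and 10.5 in INTS1-AID and 4.30, 14.6 and 5.63 in parental libraries, so the lines overlapped. TRIM65 itself fell by 0.36 (adjusted p = 6.72e-07) in the same table. AC104561.1 (ENTPD4-DT), beside a gene for a nucleoside phosphatase of the Golgi and lysosomes, rose by 2.33 (adjusted p = 0.000438) in the authors' deposited table, and ENTPD4 fell by 0.27. AC079807.1, beside the F-box gene FBXO11, rose by 2.21 (adjusted p = 0.000525) in that deposited table of the authors, where FBXO11 changed by -0.11 without passing the test.

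Deeper counts lay behind AC012645.1 (YPEL3-DT, chr16:30096430-30104116), which starts 485 bp inside YPEL3. Its normalized counts were 78.1, 97.8 and 85.5 in untreated INTS1-AID and 71.0, 70.6 and 59.6 in parental libraries. The INTS1-AID values all lay above the parental ones, but the difference of 0.37 on the log2 scale did not pass (limma adjusted p = 0.282). After 4 h its log2 change was 1.88 with a standard error of 0.21 as implied by the deposited p (adjusted p = 2.84e-17) in the authors' deposited table. YPEL3, of the yippee-like family, had a level of 93.5 normalized counts and a 4 h change of 0.32 that did not pass the test there (adjusted p = 0.330). AC008429.1 (RPL26L1-AS1, chr5:172955154-172959377) had 17.4, 13.1 and 14.1 normalized counts in INTS1-AID and 3.23, 12.9 and 11.3 in parental libraries, and rose by 2.09 (adjusted p = 0.000483) in the authors' deposited table. Its partner RPL26L1, a paralogue of the ribosomal protein gene RPL26, rose by 0.20 there (adjusted p = 0.0123). AL161421.1, which starts 955 bp inside FNDC3A, rose by 1.80 (adjusted p = 2.50e-08) in the authors' deposited table while FNDC3A fell by 0.25.

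Some rises lay outside the divergent class as assigned here, where overlap on the same strand came first. AP001372.2 (LIPT2-AS1, chr11:74493366-74498533) overlaps exons of the DNA polymerase delta subunit gene POLD3 on the same strand and an exon of a protein-coding gene on the other strand, so its reads cannot be told apart from theirs. Its normalized counts were 82.9, 89.7 and 86.7 in INTS1-AID and 106, 110 and 93.4 in parental libraries, with all INTS1-AID values lower, and the difference did not pass (limma adjusted p = 0.364). In the authors' deposited table it rose by 1.72 at 4 h (adjusted p = 3.69e-18), whereas POLD3 fell by 0.24. AC020661.1, which begins 2836 bp past the end of VPS18, an endosomal tethering gene, rose by 2.05 (adjusted p = 9.45e-06) in the authors' deposited table, while VPS18 changed by -0.07 without passing. AC009171.2, which begins 5859 bp past the end of SRL, rose by 1.78 (adjusted p = 0.00495), and the intergenic AL450326.1 (LINC02916) by 1.73 (adjusted p = 0.000493), in the authors' deposited table. AC004080.5 in HOXA3 rose by 1.01 (adjusted p = 1.43e-09) in the authors' deposited table. Values of HOXA3 are not used here.

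At 4 h the fallers of the authors' deposited table numbered 2. AP001347.1, antisense to LIPI, had 130, 150 and 163 normalized counts in untreated INTS1-AID and 160, 165 and 154 in parental libraries, and its 4 h log2 change in the authors' deposited table was -0.62 (adjusted p = 0.0122). AC015813.1, the member with the highest count, had 2003, 2161 and 1980 against 2353, 2397 and 1709, with overlapping groups, and changed by -0.43 (adjusted p = 3.94e-06) in the authors' deposited table. AC015813.1 overlaps an exon of AC015813.2 on the same strand, so reads of the pair cannot be told apart. At 12 h neither passed the test, with log2 changes of -0.32 and -0.22 in the authors' deposited table.

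**Figure D3:**
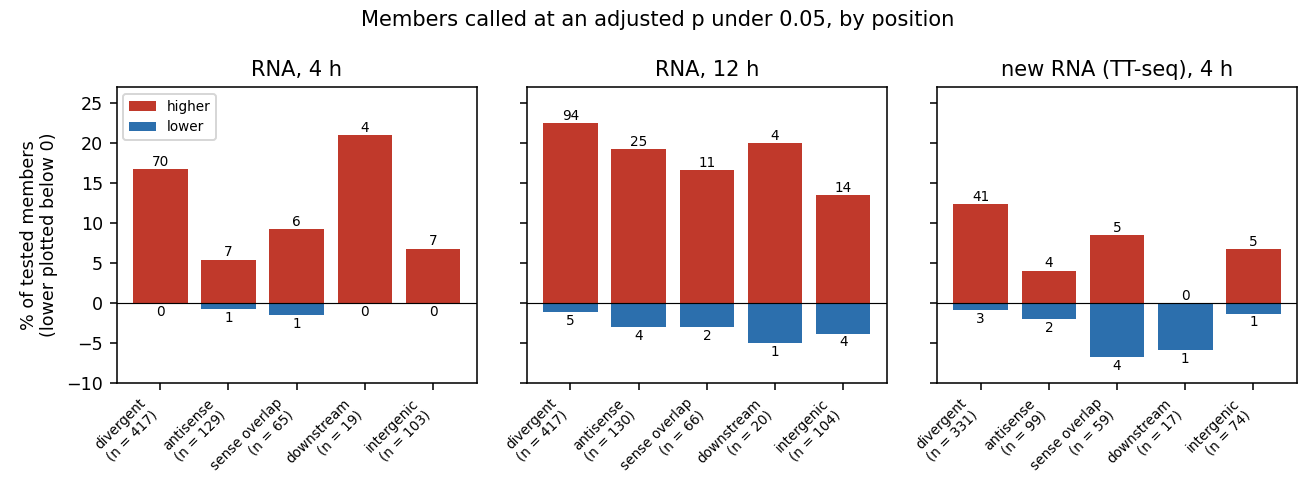
Percentage of tested members called higher (red, above 0) and lower (blue, plotted below 0) in each position class, with the number called on each bar, from the authors' deposited table at 4 h, 12 h and in new RNA at 4 h. At 4 h 70 of 417 divergent members (16.8%) are higher and 0 lower, beside 19.2% each way over all genes.

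The partners of divergent members that rose were called in both directions. Of the 70 divergent members higher at 4 h, 68 had a partner with a value in the authors' deposited table, and of these partners 13 were higher, 28 lower (41.2%) and 27 not called. Over all 404 divergent pairs with a value, 81 partners were higher and 102 lower (25.2%); this difference in share was not tested. The member lay above its partner in 303 of the 404 pairs, with median log2 changes of 0.72 and -0.03, and in 98 of 120 pairs in which the member had a mean count of at least 20, with medians of 0.66 and -0.05. This mean covers libraries with and without auxin, so members that rose reach 20 more easily than members that fell. The limit thus favours the member in the 120 pairs. For the 68 pairs chosen because the member was higher, that choice favours the member, which was above its partner in 66. Over the 120 pairs, Pearson's r between both changes was 0.003 and Spearman's rho 0.02, across genes that share the same libraries. At 12 h the partners of 92 risers with a value comprised 23 higher, 21 lower and 48 not called in the authors' deposited table, and the member was above its partner in 89 of these chosen pairs and in 316 of all 405. Pearson's r at 12 h was 0.05 and Spearman's rho 0.15 over 113 pairs with a mean of at least 20, 0.25 and 0.22 over the 92 risers, and 0.04 and 0.08 over all 405, again across genes of the same libraries. Counting by strand is not stated, and 349 members overlap an exon of a protein-coding gene on the other strand. Among members with no exon overlap on either strand, at 4 h the authors' deposited table gave 40 of 366 higher and 1 lower, and 25 of 174 divergent ones were higher and 0 lower.

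**Figure D4:**
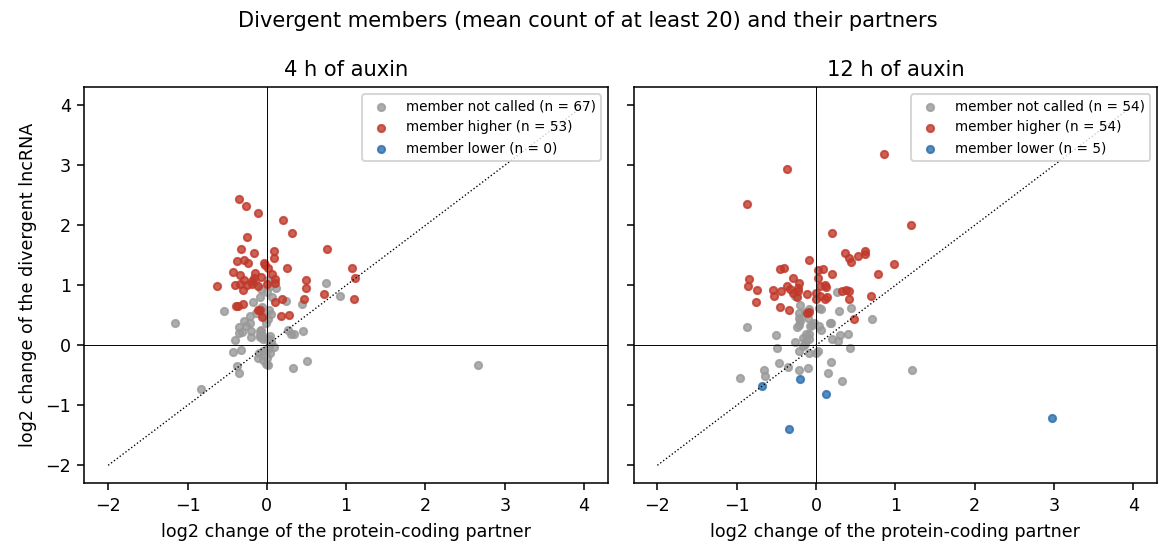
Log2 change of divergent members with a mean count of at least 20 (y axis) against that of their protein-coding partner (x axis) at 4 h and 12 h, 1 point for each pair, with the dotted line where both are equal. Members called higher (red) lie mostly above the line, and their partners lie on both sides of 0.

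After 12 h of auxin more members were called, and the direction of these calls is an assumption. No deposited column settles it: the expression column that fixed the 4 h direction was missed at 12 h by a median of 0.133 to 0.176 on the log2 scale over 5214 genes under auxin over no auxin, and by 0.0588 to 0.0997 under the opposite reading, against 0.000476 for the 4 h reading. The 12 h change was taken as auxin over no auxin because it correlates with the 4 h change (Pearson's r = 0.85 across 10700 genes). The authors' deposited table held 148 of 737 members higher (20.1%) and 16 lower (2.17%), beside a background of 21.9% higher and 22.3% lower over all genes. With the direction turned, it would be 16 higher and 148 lower, and every 12 h value below would change sign. As taken, the median log2 change was 0.59, against 0.38 for other lncRNA genes and 0.01 for all genes, and 551 of the 737 lay above 0. From 30 to 100 counts, 31 of 104 members (29.8%) and 47 of 130 other lncRNA genes (36.2%) were higher. Of members with 100 to 300 counts 27 of 46 were higher and 3 lower, against 24 and 9 of 61 other lncRNA genes and 431 and 487 of 1801 protein-coding genes in that deposited table of the authors. By position, 94 of 417 divergent members were higher and 5 lower (median 0.76), 25 and 4 of 130 antisense ones (0.73), 11 and 2 of 66 overlapping a gene on the same strand (0.20), 4 and 1 of 20 downstream ones (0.28) and 14 and 4 of 104 intergenic ones (0.25).

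AP001160.1 (STX5-DT, chr11:62832234-62834043), which faces the Golgi syntaxin gene STX5 across the bases in capitals above, had the largest rise at 12 h among members called with a mean count of at least 20. Its mean count was 20 at 12 h and 18 at 4 h, over libraries with and without auxin, so its rise helped it to reach the limit. Before treatment it was barely detected, with 7.10, 13.1 and 2.34 normalized counts in INTS1-AID and 5.38, 1.72 and 2.25 in parental libraries, and the lines overlapped. Its log2 change was 3.18 with an implied standard error of 0.51 (adjusted p = 3.07e-09) at 12 h and 3.19 (adjusted p = 0.000142) at 4 h in the authors' deposited table. STX5 changed by 0.86 (adjusted p = 5.32e-15) at 12 h and by -0.05 (adjusted p = 0.647) at 4 h in the same table. AC099811.3 (RAB5C-AS1) rose by 2.38 (adjusted p = 8.49e-08), AC087289.2 by 2.35 (adjusted p = 1.44e-07) and AC012645.1 by 2.0 (adjusted p = 4.52e-28) at 12 h in the authors' deposited table. YPEL3 itself was higher at 12 h there, by 1.19, and TRIM65 lower by 0.87, so partners of members that rose moved in both directions.

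Other 12 h rises included antisense members, such as AC006064.4 at the far more abundant GAPDH. AC006064.4 (chr12:6537794-6538370) overlaps an exon of the glycolytic gene GAPDH on the other strand. Its normalized counts were 14.2, 19.2 and 37.5 in INTS1-AID and 21.5, 18.9 and 28.1 in parental libraries, beside a mean of 66537 for GAPDH. In the authors' deposited table its log2 change was 2.60 (adjusted p = 3.91e-18) at 12 h and -0.002 at 4 h, and that of GAPDH was 0.30 and 0.02. At such a ratio of levels, reads of GAPDH and of its antisense gene cannot be told apart unless counting used strand. AL139099.2, antisense to the N-glycan enzyme gene MGAT2, rose by 2.03 (adjusted p = 1.34e-06) at 12 h in the authors' deposited table, where MGAT2 rose by 1.20. AC138028.2, antisense to the mechanosensitive channel gene PIEZO1, rose by 1.97 (adjusted p = 1.74e-10) there, and PIEZO1 fell by 0.90. AC073611.1 (MYG1-AS1), which starts 628 bp inside its partner C12orf10, rose by 1.88 (adjusted p = 1.75e-05), and AC009171.2 by 1.87 (adjusted p = 2.47e-06), in the authors' deposited table.

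The 16 members that fell at 12 h included divergent, antisense, downstream and intergenic genes. AC019068.1 (GBX2-AS1, chr2:236167465-236214225) had 52.9, 48.4 and 60.9 normalized counts in INTS1-AID and 72.0, 74.9 and 95.6 in parental libraries. The INTS1-AID values were all lower, but the difference did not pass (limma adjusted p = 0.174). Its 12 h log2 change was -1.21 (adjusted p = 0.000132) in the authors' deposited table, whereas its partner GBX2, a homeobox transcription factor gene, changed by 2.97 (adjusted p = 3.39e-78). AC106786.1 (PRDM6-AS1) and PRDM6, for a transcriptional repressor, both changed by -0.68 in the authors' deposited table. AL590617.2 (NHSL1-AS1) had the largest fall among called members with a mean count of at least 20, with a log2 change of -1.40 (adjusted p = 2.21e-08) in the authors' deposited table, beside -0.35 for NHSL1. Next among those members were AC103702.2 (LINC03057) near HOXB7 at -1.17, AL590666.2 (BCAN-AS2) at -1.12, Z92544.2 at -0.82, AP001062.1 at -0.80, Z84723.1 at -0.75, U73166.1 at -0.74 and AL139287.1 at -0.68 in the authors' deposited table. AL139287.1 overlaps an exon of INTS11, the catalytic subunit gene of Integrator, on the same strand, and INTS11 changed by -0.44 there.

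With the 12 h direction taken as above, most members had the same sign at both times. That direction was chosen because it correlates with the 4 h change, so agreement in signs and calls follows in part from the choice. The same shares over all genes are not given here. Of the 727 members with a value at both times, 452 were above 0 at both, 80 below 0 at both, 101 above then below and 94 below then above in the authors' deposited table. Of the 94 members higher at 4 h, 58 (61.7%) were also higher at 12 h, which is 39.2% of the 148 higher at 12 h. AP001062.1, antisense to the ciliary gene CFAP410, was the 1 member called in opposite directions, at 0.60 (adjusted p = 0.0467) and then -0.80 (adjusted p = 7.87e-05) in the authors' deposited table. It had 67.1, 86.7 and 71.5 normalized counts in INTS1-AID and 106, 109 and 158 in parental libraries before treatment, with no overlap, and the difference was not called by limma (adjusted p = 0.132), while the authors' deposited table gave a log2 difference of -0.72 (adjusted p = 0.0401) between the untreated lines.

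A test of the difference between times, from the deposited log2 changes and the standard errors their p-values imply, called 16 of 727 members. The 12 h change was above the 4 h change for 5 and below it for 11, beside a background of 6.33% above and 8.55% below over all genes. This test rests on the 12 h direction too: with it turned, 16 members would lie above and 190 below. NUDT19-DT (AC008736.1), beside NUDT19, a gene for a peroxisomal coenzyme A diphosphatase, rose by 1.21 at 4 h and by 2.93 at 12 h in the authors' deposited table, a difference of 1.73 ± 0.46 (SE, Wald test, adjusted p = 0.00290). Its normalized counts were 35.5, 30.3 and 41.0 in untreated INTS1-AID and 26.9, 25.8 and 37.1 in parental libraries, while NUDT19 changed by -0.15 and then -0.37. AC010442.1 went from 0.34 to 0.94 and AC016876.2, divergent from MPDU1, from 0.49 to 1.55 in the authors' deposited table. Changes that shrank included LIPT2-AS1, from 1.72 to 0.52, AC099850.2, divergent from TRIM37, from 1.40 to 0.06, and KCTD13-DT (AC120114.1), from 1.54 to 0.56, in the authors' deposited table.

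**Figure D5:**
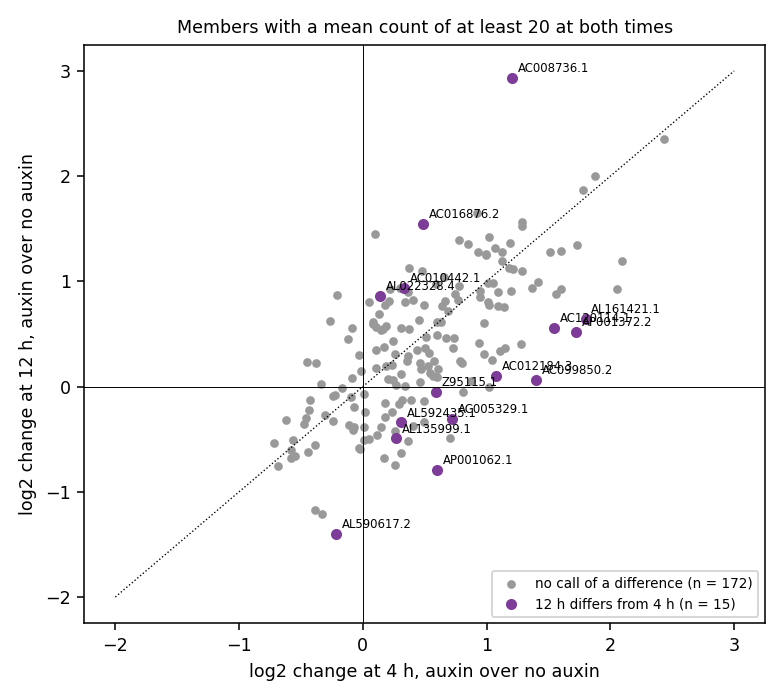
Log2 change at 12 h (y axis) against that at 4 h (x axis) for the 187 members with a mean count of at least 20 at both times, with the dotted line where both are equal. The 15 members whose changes differ by the Wald test (purple) include AC008736.1 at 1.21 and 2.93, far above the line.

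New RNA of the members at 4 h was also higher more often than lower, in the direction that correlates with the 4 h RNA change (Pearson's r = 0.89 across 8590 genes with a mean of at least 100 in both). The merged table also holds a comparison of newly made RNA (TT-seq, in which RNA labelled for a short time is sequenced) after loss of INTS1, for libraries outside the 17. From the authors' deposited table, 55 of 580 members were higher (9.48%) and 11 lower (1.90%), beside a background of 13.3% higher and 10.7% lower, and the median log2 change was 0.23 against -0.01 for all genes. Divergent members had 41 higher and 3 lower of 331 with a median of 0.36, whereas downstream members had 0 higher and 1 lower of 17 with a median of -0.25. Of the 94 members higher in steady-state RNA at 4 h, 35 (37.2%) were higher in new RNA, which is 63.6% of the 55, and 90 lay above 0. The new RNA direction was chosen by its correlation with the 4 h change, so this agreement follows in part from the choice. The same shares over all genes are not given here. Of the 580 members tested in new RNA, 331 were divergent. How many of all genes were higher at 4 h, at 12 h and in new RNA is not given here either. The 26 members higher at 4 h, at 12 h and in new RNA comprised 19 divergent, 3 intergenic, 2 antisense and 2 that overlap a gene on the same strand. Among them, STX5-DT had a new RNA log2 change of 2.7 (adjusted p = 2.00e-11), RPL26L1-AS1 of 1.80 (adjusted p = 3.19e-07), AC087289.2 of 1.67 (adjusted p = 0.00316) and YPEL3-DT of 1.25 (adjusted p = 3.58e-05) in the authors' deposited table. With the direction so chosen, the 2 members that fell at 4 h were lower in new RNA too. The log2 changes were -1.11 for AP001347.1 and -0.46 for AC015813.1, per the authors' deposited table. The downstream genes AC020661.1 and AC009171.2 had new RNA changes of 0.63 and 0.37 that did not pass there.

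Other lncRNA genes were grouped by their names. At 4 h the authors' deposited table listed 17 of 59 other lncRNA genes ending in -DT as higher and 2 as lower (median 0.82), 69 and 11 of 333 ending in -AS (0.38), 14 and 0 of 117 LINC genes (0.42) and 6 and 3 of 28 host genes of small RNAs (0.11). At 12 h it was 16 and 3 of 58, 74 and 18 of 334, 20 and 7 of 118 and 9 and 1 of 28 in the authors' deposited table. Members that later received a -DT symbol stood at 32 higher and 0 lower of 151 at 4 h, and those still without a symbol at 40 and 2 of 435. The background of all genes was 19.2% each way at 4 h, and 21.9% higher and 22.3% lower at 12 h. A list of 21 genes held Integrator subunit genes and those of associated proteins (BRAT1, NABP1, NABP2, INIP, PPP2CA and PPP2R1A). For it the authors' deposited table gave 8 higher, NABP1 and NABP2 among them, and 3 lower at 4 h. At 12 h it gave 9 higher and 1 lower. Of 25 genes for nuclear decay of non-coding RNA, such as exosome subunits, the same deposited table of the authors gave 2 higher and 8 lower at each time. Their part in the members' changes was not tested.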

How the data were processed

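Stranded libraries came from either of a pair of kits, per the labels' protocols, without saying which kit served which library. STAR 2.7.3a, DESeq2 and the builds hg38 and dm6 are named in the submitters' processing notes, with no role. Not given in the sources used here are the counter, its strand setting and the annotation release.

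The deposited signal values are normalized counts, made by the authors as read counts divided by 1 size factor per library. Division by each library's smallest value above 0 gave whole reads for 100% of values within 0.001. The authors deposited log2 fold changes, linear fold ratios and p-values for each comparison, and −log10 adjusted p-values. Score columns hold the authors' calls and their mean normalized counts, rounded. The 4 h direction (auxin over no auxin) was checked against a deposited expression column, with a median error of 0.000476 on the log2 scale over 5431 genes. That check needs unequal group sizes, since otherwise a turned ratio with the other group's level gives the same column; it settles neither 12 h nor new RNA, whose directions rest on their correlation with 4 h. The direction of the INTS8 new RNA comparison was not settled, and it is not reported. In the table of the untreated lines the headers name another assay, although the fold changes match the counts beside them, and 0 columns per library were left without a sample.

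Untreated lines were compared with limma 3.58.1 (R 4.3.3, trend and robust) on log2(normalized count + 1) for genes with a mean of at least 10, adjusted by Benjamini-Hochberg over 13293 genes at 0.05. Alternatives on recovered reads used DESeq2 1.42.0 and edgeR 4.0.16. The fold changes at 4 h and 12 h and in new RNA are the authors'. Their standard errors were taken from the p-values, and 12 h was set against 4 h by a Wald z test over 14460 genes. Scripts were tested on simulated data. Of the members, 751 are in GENCODE v29, and 558 have the same span there; classes use the deposited coordinates.

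Named members are, per comparison, the 10 largest rises and 10 largest falls among those called with a mean of at least 20, the 5 most abundant per kb, and those called in opposite directions. In the auxin comparisons the mean of at least 20 covers libraries with and without auxin, so a rise helps a weak member to reach it. AC016876.2, AC099850.2, AC120114.1, AC021087.1 and AC093510.1, and the members beyond these in the closing section, were named after their values were seen. The members and all lists were chosen with earlier results of these data known.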

Additional observations from a re-analysis of the deposited data

Results flagged for a closer look

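These results stood out because the change at 12 h differed from the change at 4 h by the Wald test on the authors' deposited values (adjusted p under 0.05 over all genes), with the 12 h direction taken as auxin over no auxin. The 12 h change was above the 4 h change for 5 of 727 members and below it for 11, beside 6.33% above and 8.55% below over all genes. Both shares of members were thus below those of all genes. Among the named members, the 12 h minus 4 h log2 difference was 2.60 for AC006064.4, antisense to GAPDH, 1.73 for AC008736.1 (NUDT19-DT) and 0.60 for AC010442.1 (PP7080). It was -1.16 for AL161421.1, beside FNDC3A, -1.18 for AL590617.2 (NHSL1-AS1), -1.20 for AP001372.2 (LIPT2-AS1) and -1.40 for AP001062.1, antisense to CFAP410. AC006064.4 and AP001062.1 overlap exons on the other strand, and AC010442.1 and AP001372.2 overlap exons on both strands. Whether reads of those genes enter the differences was not tested.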

How the results depend on the processing

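Of the untreated comparison, the count of 1 higher and 0 lower member held with a pseudocount of 0.1, no filter, a mean of at least 50, scaling by library totals and edgeR. It was 2 higher with a pseudocount of 10, 3 higher with a GC trend removed (an alternative chosen after seeing the data), 2 higher and 1 lower with DESeq2, and 0 higher at an FDR of 0.01 or a log2 change of at least 1. Leaving out 1 library gave 0 to 10 members higher and 0 to 2 lower, and the cause was not tested beyond the GC values given for the third parental library. Replicate numbers do not pair the samples: same-numbered libraries had correlations of deviations of -0.0748, 0.00399 and -0.110, and the replicate block gave 0 members higher.

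At 4 h an adjusted p under 0.01 gave 56 higher and 1 lower, a mean of at least 50 gave 43 higher, a log2 change of at least 1 gave 0 lower, and leaving out sense exon overlaps gave 1 lower. At 12 h an adjusted p under 0.01 gave 96 higher and 10 lower, a mean of at least 50 gave 50 higher and 9 lower, and a log2 change of at least 1 gave 5 lower. Members with no exon overlap (chosen after seeing the data; fewer members) gave 40 higher and 1 lower at 4 h and 63 higher and 6 lower at 12 h. In that subset at 4 h, 25 divergent, 2 antisense and 2 sense-overlapping members were higher and 0 sense-overlapping members were lower. At 12 h it held 32 divergent, 9 antisense and 4 sense-overlapping members higher and 0 divergent, 1 antisense and 0 sense-overlapping members lower. A divergent limit of 1 kb gave 11 antisense members higher at 4 h, and a downstream limit of 5 kb gave 2 downstream members higher at 4 h and 2 at 12 h. With the 12 h direction turned (an alternative chosen after seeing the data), 16 members would be higher and 148 lower at 12 h, and the 12 h change would lie above that at 4 h for 16 and below it for 190. At an FDR of 0.01, 4 members had a 12 h change below that at 4 h. For the other 78 values of counts the result was within 1.5 times. For the auxin libraries only comparison columns were used, which hold no values per library, so no replicate could be left out. Their depth is unknown, and a member not called may be too weakly counted: 4 of 413 under 10 counts were higher at 4 h.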
